A study of Homo sapiens with 12 samples.

Results

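THP-1 is an established human cell line grown from an acute monocytic leukaemia and is widely used as a stand-in for human monocytes. Described here is its untreated state: the 3 libraries of the normal control group, named NC 1, NC 2 and NC 3, out of 12 libraries in all. They were chosen by their labels, with no measured value in the choice, and none of the cultures carried an engineered change that the labels name. The other 9 libraries come from the same line and serve only as context: 3 received LPS and ATP as a model of pyroptosis (LPS), 3 received LPS, ATP, CsA (cyclosporin A) and Eltrombopag (CE), and 3 received these and Luspatercept (CEL). The labels give each library a batch equal to its replicate number, so the 3 NC libraries differ in batch. They do not say whether the 3 came from separate cultures, so the spread between them may be technical. No test between groups was made.

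Monocytes are made in the bone marrow from granulocyte and monocyte progenitors, which fill their azurophil granules with proteases such as cathepsin G and neutrophil elastase before they mature. On leaving the marrow they carry receptors for bacterial products, for antibodies and for chemokines, and they keep the parts of the inflammasome ready. The inflammasome is the protein platform on which caspase-1 is activated, cuts the precursors of interleukin-1 beta and interleukin-18, and opens gasdermin D pores. THP-1 cells carry a fusion of KMT2A with MLLT3, a leukaemia driver known to hold HOXA genes active, and an activated NRAS.

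The libraries held 22622366, 20017097 and 17737240 estimated counts, and 17929 of 78932 listed genes had a count in all 3. Levels are given in TPM, a share of all transcripts which is scaled by transcript length and so can be compared between genes. Of the listed genes, 11090 had a mean of 1 TPM or more over the 3 libraries, 5879 of 10 or more, 1176 of 100 or more and 148 of 1000 or more, and the 107 highest genes together held 50% of all TPM. Among 19603 protein-coding genes, 46% reached 1 TPM, and the median was 0.523 TPM. This 46% is the share to set beside each count of list members at 1 TPM or more below. A count of 0 allows up to 3 counts in the 60376703 pooled counts of the group, a limit that covers counting error only, and counts given for single genes below are summed over the 3 libraries.

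NC 3 stood apart from NC 1 and NC 2. Nuclear ribosomal RNA took 0.0246% and 0.072% of TPM in NC 1 and NC 2 and 17.1% in NC 3. Small nuclear, nucleolar and other short structural RNAs took 0.102%, 0.12% and 5.63%, and 3 genes without a symbol took 0.0323%, 0.0648% and 7.51%. The 3 genes lie beside copies of 5.8S ribosomal RNA genes. TPM add up to a fixed total in every library. Over 5391 nuclear protein-coding genes of 10 TPM or more, the median ratio of NC 3 to NC 1 was 0.704, against 1.01 for NC 2 to NC 1. The median coefficient of variation of these genes was 19.6% as deposited and 4.1% after each library was scaled to the same sum over nuclear protein-coding genes. A lower value in NC 3 by about this ratio is found for most genes below and is not repeated for each. Values given as mean ± SD are over n = 3 libraries as deposited.

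**Figure D1:**
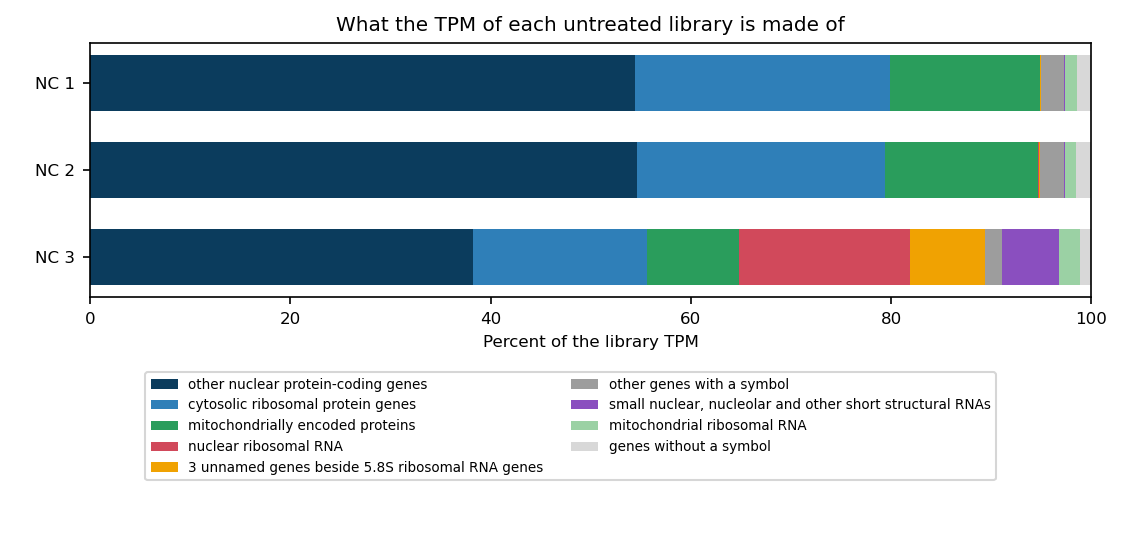
Percent of each untreated library's TPM (x axis) taken by 9 classes of genes, with 1 bar per library. Nuclear ribosomal RNA takes 17.1% of NC 3 and under 1% of NC 1 and of NC 2, and every protein-coding class is narrower in NC 3.

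Levels also moved with base composition. For each protein-coding gene the GC content is the median over its coding transcripts in the reference annotation. Of genes at 40% GC or less, 62.1% reached 1 TPM, with a median of 6.66 TPM. Of genes over 60 to 65% GC, 19.8% did, with a median of 0.0933 TPM, and of those over 65%, 6.11% did, with a median of 0.0367 TPM. In the 12 libraries the last share ran from 4.61% to 8.87%, and in the bin of 60 to 65% the share ran from 16% to 28.3%. GC content is given mostly beside low values of GC-rich genes. Some GC-rich genes were high, such as ACTB (GC 62%) at 2162 TPM. The part of GC content in any level was not tested.

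**Figure D2:**
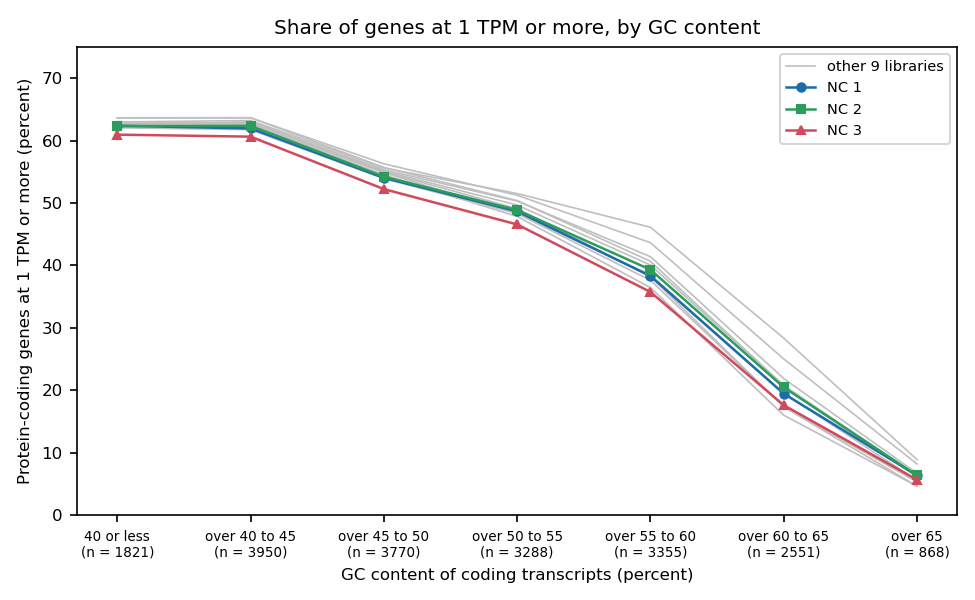
Percent of protein-coding genes at 1 TPM or more (y axis) in 7 bins of GC content (x axis, with the number of genes), 1 line per library. The 3 untreated libraries and the other 9 all fall from between 61% and 63.6% in the first bin to between 4.61% and 8.87% in the last.

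The genes with the highest mean TPM were those of mitochondria, ribosomes and translation. MT-ATP8, a short mitochondrially encoded subunit of ATP synthase, was listed at 36016, 35096 and 18926 TPM, followed by MT-CO3 at 16970.0 TPM and MT-CO2 at 16091, which encode subunits of cytochrome oxidase. MT-ATP8 had 95056 counts, against 286361 for MT-ATP6 and 937028 for MT-CO1. Its first place thus depends on division by a short length. Further mitochondrial genes, MT-ND4L, MT-CO1, MT-ND4, MT-ATP6 and MT-ND3, lay between 8577 and 13893 TPM. MT-RNR2, the large mitochondrial ribosomal RNA, had 11522 TPM. EEF1A1, which brings transfer RNAs to the ribosome, led the nuclear genes with 9736 ± 1855 TPM. The ribosomal proteins RPS27 and RPS18 stood at 7976 and 7269.6. The other places among the 20 highest were held by the 3 unnamed genes and by copies of 5.8S ribosomal RNA such as RNA5-8SN1, whose mean of 7113 TPM came from 30.7, 86.6 and 21222 TPM in NC 1, NC 2 and NC 3 and so rests on NC 3. Among other nuclear genes, YBX1, an RNA-binding protein, had 5282 ± 1088 TPM. PTMA, the chromatin-associated prothymosin alpha, had 5186 ± 1121 TPM.

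Of the 5 genes used to mark these cells, 4 were well expressed and 1 was not. CTSG, which encodes the azurophil protease cathepsin G (chromosome 14, 24573518 to 24576250 on GRCh38.p14), was listed at 865, 815 and 561 TPM in NC 1, NC 2 and NC 3. LYZ, which encodes lysozyme (chromosome 12, 69348381 to 69354234), was listed at 679, 681 and 487 TPM. KIT, the receptor for stem cell factor (chromosome 4, 54657957 to 54740715), was listed at 78.8, 76.7 and 56.3 TPM. CASP1, the protease of the inflammasome (chromosome 11, 105025443 to 105036686), was listed at 74.3, 74.2 and 53 TPM. All 3 libraries were far above 1 TPM for each of these genes, and NC 3 was lowest each time. MPO, myeloperoxidase (chromosome 17, 58269855 to 58280935, GC 57.7%), was listed at 0.31, 0.34 and 0.1 TPM, with 34 counts in all. MPO is the defining enzyme of the azurophil granule, and its level goes against its use as a marker of these cells. The other 4 markers were present.

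Azurophil granule genes were otherwise expressed, at very unequal levels. Of 14 members of the list, 9 reached 1 TPM, beside 46% of all protein-coding genes, with a median of 31.2 TPM. SRGN, serglycin, the proteoglycan on which granule proteases are packed, was highest at 1977, 1892 and 1335 TPM. AZU1, azurocidin, was listed at 43.2, 53.4 and 34.5 TPM, PRTN3, proteinase 3, at 28, 34.8 and 22.5 and ELANE, neutrophil elastase, at 26.1, 32.6 and 18.5. These 3 genes stand side by side on chromosome 19 and have GC contents of 65.5%, 66.2% and 66.9%, whereas CTSG has 57.2%. The ratio of CTSG to AZU1 was 20.03, 15.3 and 16.3 in the 3 libraries, and that of CTSG to ELANE was 33.1, 25 and 30.4. CTSC, the enzyme that activates these proteases, had 173 ± 34.2 TPM, CD63, a granule membrane protein, 314 ± 60.8, and SERPINB1, their inhibitor, 33.9 ± 6.29. DEFA4, BPI and the defensins DEFA1 and DEFA3 were below 1 TPM, with 0 to 11 counts.

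Granule proteins made later in neutrophil maturation were nearly silent. Of 12 such genes, 2 reached 1 TPM and 8 had at most 3 counts. LTF, lactoferrin, had 2 counts over the 3 libraries, MMP9, gelatinase B, had 1 (GC 62.4%), and LCN2 had 0. CEACAM6, an adhesion molecule, was the exception with 12.9, 13.2 and 8.28 TPM, and CAMP, cathelicidin, had 1.52, 0.68 and 1.33 TPM. MMP8, collagenase of neutrophils, and ARG1, arginase 1, had 5 and 4 counts.

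Among genes named for eosinophils, basophils and mast cells, 3 of 13 reached 1 TPM. RNASE2, the eosinophil-derived neurotoxin, which is also made by monocytes, was listed at 618, 628 and 436 TPM (chromosome 14, 20955487 to 20956436). RNASE3, the eosinophil cationic protein, its close paralog on the same chromosome (chromosome 14, 20891385 to 20892348), was listed at 13.1, 11.3 and 9.24 TPM. The ratio between them was 47.4, 55.6 and 47.2, and their GC contents were 46.2% and 47.6%. The paralogs share sequence and the deposited counts are estimates, so reads of one may have been given in part to the other. PRG2, eosinophil major basic protein, had 6.77 ± 1.06 TPM. MS4A2, a chain of the IgE receptor, had 0.303 TPM. Mast cell tryptase TPSAB1 had 4 counts, and EPX, eosinophil peroxidase, had 3. CPA3 of mast cells and CLC of eosinophils had 0.

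The promoter stretches of CTSG, RNASE2 and RNASE3 are shown because CTSG is the most abundant granule protease gene here. RNASE2 and RNASE3 differ in level while their upstream sequences are alike over most of their length, apart from a gap. Each is 300 bases from RefSeq (GRCh38.p14), from 250 bases before to 50 bases after the annotated start, 5′ to 3′ on the gene's strand. They lie at chr14:24576201-24576500 on the minus strand for CTSG, and at chr14:20955237-20955536 and chr14:20891135-20891434 on the plus strand for RNASE2 and RNASE3. Capitals mark matches to 3 motifs searched on both strands: GAGGAA, the core bound by ETS factors such as SPI1, TTGCNNAA, the core bound by C/EBP factors, and TATAAA, the TATA box.
CTSG: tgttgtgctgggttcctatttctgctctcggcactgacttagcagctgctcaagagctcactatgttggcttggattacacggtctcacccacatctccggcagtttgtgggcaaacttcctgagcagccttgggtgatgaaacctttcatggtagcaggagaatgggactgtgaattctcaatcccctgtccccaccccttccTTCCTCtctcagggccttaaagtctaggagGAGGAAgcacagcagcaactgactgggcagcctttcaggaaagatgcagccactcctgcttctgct
RNASE2: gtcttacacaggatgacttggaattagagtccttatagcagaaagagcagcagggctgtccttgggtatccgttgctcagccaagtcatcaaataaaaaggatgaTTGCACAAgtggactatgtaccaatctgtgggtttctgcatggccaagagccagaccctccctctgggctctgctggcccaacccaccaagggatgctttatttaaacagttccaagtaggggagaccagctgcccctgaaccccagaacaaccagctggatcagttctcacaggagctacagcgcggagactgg
RNASE3: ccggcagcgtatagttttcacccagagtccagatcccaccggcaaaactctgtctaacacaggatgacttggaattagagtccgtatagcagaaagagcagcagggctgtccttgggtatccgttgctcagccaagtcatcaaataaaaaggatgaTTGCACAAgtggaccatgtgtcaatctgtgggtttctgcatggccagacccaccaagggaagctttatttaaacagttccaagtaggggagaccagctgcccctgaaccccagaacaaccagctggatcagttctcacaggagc
CTSG held 2 matches to GAGGAA, 1 on each strand, which 27.9% of all 35116 promoters of this length hold at least once. RNASE2 and RNASE3 each held 1 match to TTGCNNAA on the plus strand, found in 10.5% of all, and none of the 3 held TATAAA, found in 11.5%. In a local alignment the stretches of RNASE2 and RNASE3 shared 243 of 249 aligned bases (97.6%). This share leaves out 34 bases of gap. The match to TTGCNNAA began at -145 from the annotated start in RNASE2 and at -94 in RNASE3. Its distance to the start thus differs between the 2 genes. Whether any of these motifs is bound was not measured.

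Stem and progenitor genes were expressed in part. KIT, given above, and FLT3, the receptor for FLT3 ligand (18.7, 18.9 and 13.9 TPM), were present, as were CD164 (151 ± 26.1), a sialomucin, SPN (6.46 ± 1.59), leukosialin, and CD38 (4.49, 5.35 and 5.36), an ectoenzyme of committed progenitors. CD34, the antigen that marks stem and progenitor cells, had 3 counts over the 3 libraries, PROM1 had 0 and MECOM had 2, at GC contents of 49%, 42.7% and 45.1%. Over the list, 5 of 14 reached 1 TPM, with a median of 0.137 TPM.

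Of 40 monocyte and macrophage genes, 18 reached 1 TPM, a share near the 46% of all protein-coding genes. The calgranulins S100A9 and S100A8, calcium-binding proteins abundant in monocytes, were listed at 709, 703 and 491 and at 409.7, 386 and 266 TPM. Their ratio was 1.8 ± 0.0603. AIF1, an actin-binding protein of macrophages, had 363 ± 72.7 TPM and FCGR1A, the high-affinity IgG receptor, 197, 193 and 153 TPM in the 3 libraries. CD68, a lysosomal glycoprotein, had 81.2 ± 18.1 TPM, CD33, a sialic acid receptor of myeloid cells, 64.9 ± 14.6 and CD4, also carried by human monocytes, 57.5 ± 13.7. CD14, the co-receptor for LPS, was listed at 1.03, 0.62 and 0.55 TPM with 56 counts in all (GC 57.9%). ITGAM, the integrin CD11b, had 0.433 TPM, FCGR3A, CD16, 0.143 and CD163, a haemoglobin scavenger receptor, 0.27. MRC1, the macrophage mannose receptor, had 3 counts, and FCN1, ficolin of blood monocytes, had 0. These last genes have GC contents of 42.6% and 53%.

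**Figure D3:**
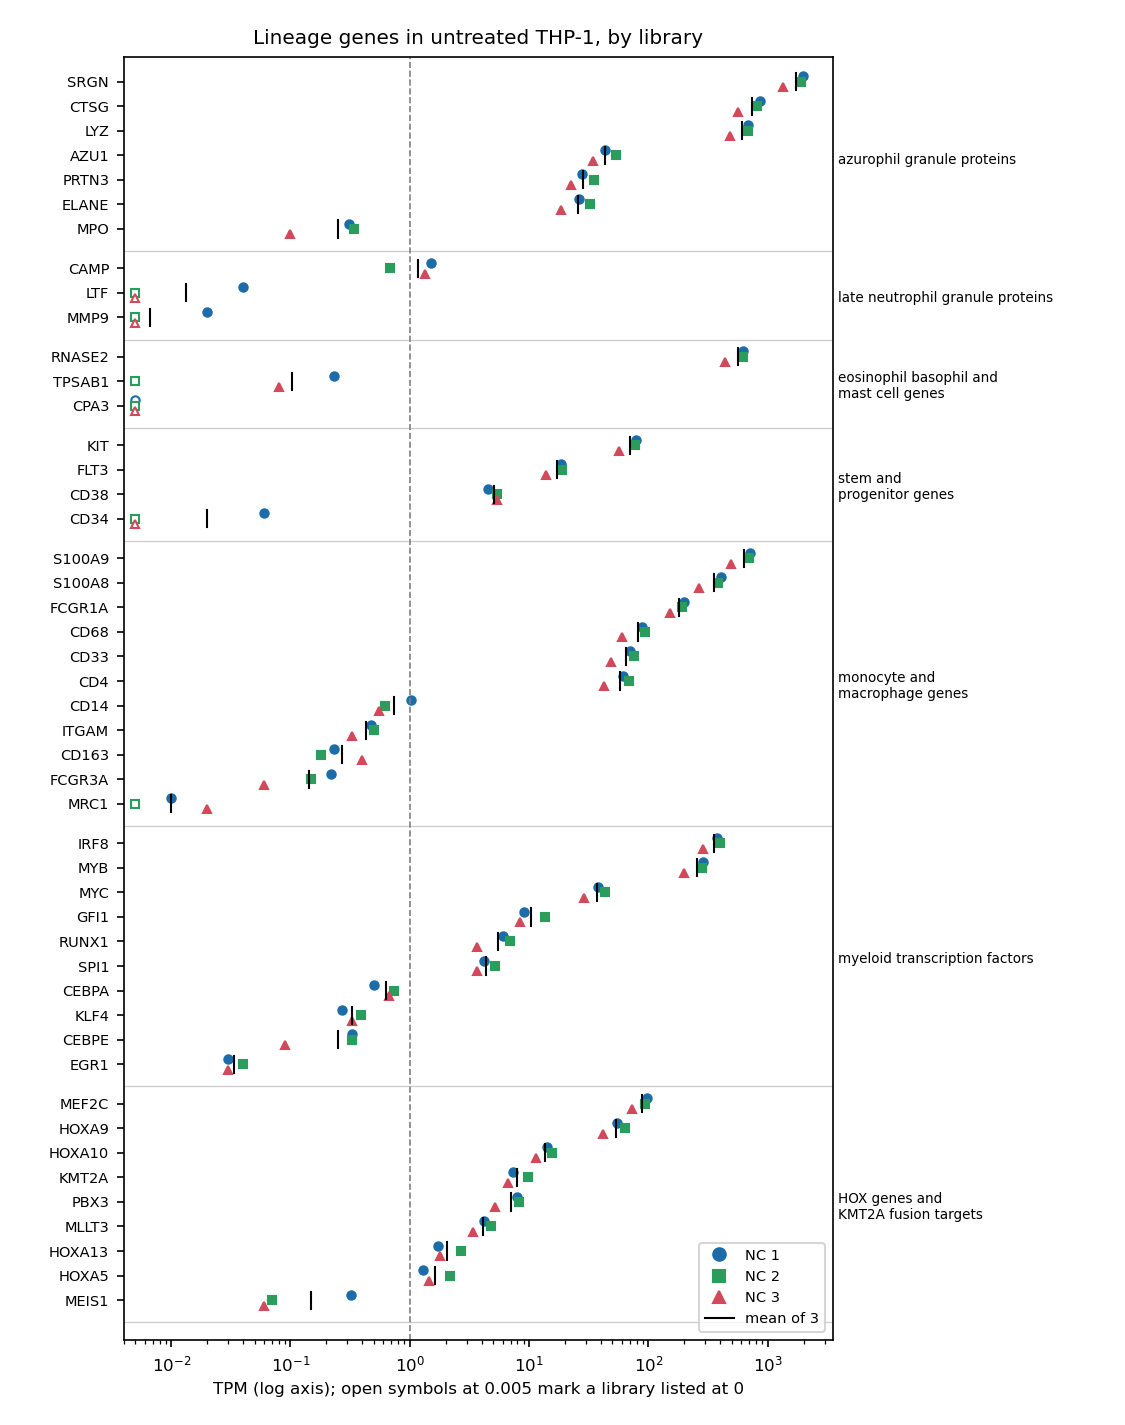
TPM in each untreated library (x axis, log scale) of core lineage genes, grouped by list, with 1 symbol per library and a black bar for the mean of 3. CTSG, LYZ, S100A9 and IRF8 lie above 100 TPM in every library, while MPO, CD14 and CEBPA have means below 1 TPM (dashed line).

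Transcription factors of the myeloid line spanned a wide range. IRF8, which directs the monocyte and dendritic fates, was listed at 379.7, 403 and 285 TPM in NC 1, NC 2 and NC 3. MYB, a factor of proliferating progenitors, was listed at 287, 284 and 197 TPM. These 2 were the highest of the list, and each was above 100 TPM in every library. ZEB2, a repressor needed for monocyte formation, had 106 ± 18.1 TPM, and ID2, an inhibitor of helix-loop-helix factors, had 92.8 ± 14.8. MYC, which drives growth, had 36.9 ± 7.53 TPM. GFI1, a repressor of monocyte genes in granulocyte precursors, had 10.4 ± 2.88 TPM, and RUNX1, a factor of blood stem cells, had 5.52 ± 1.68.

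SPI1, also known as PU.1 and central to myeloid cells, was listed at only 4.21, 5.21 and 3.69 TPM, with a GC content of 65.6%. IRF8, its partner on DNA, read 90.2, 77.3 and 77.2 times SPI1 in the 3 libraries. The C/EBP factors, which open granule genes, were lower still. CEBPA had 0.637 TPM, CEBPE 0.25 and CEBPB 0.353, at GC contents of 65.9%, 62.9% and 66.2%. KLF4, a monocyte factor, had 0.33 TPM (GC 58.6%), and EGR1, an immediate early gene, had 6 counts (GC 55.4%). In all, 19 of 34 factors reached 1 TPM, beside 46% of all protein-coding genes. Of the 10 with a GC content over 60%, 2 did. Among all protein-coding genes the share was 19.8% over 60 to 65% GC and 6.11% over 65% GC.

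HOX genes, which encode factors of body position that are also active in blood progenitors, reached 1 TPM in the HOXA cluster of chromosome 7 and in no other cluster. HOXA9, the factor most tied to KMT2A leukaemias, was listed at 54.8, 63.6 and 41.9 TPM. HOXA10, next to it, was listed at 14.2, 15.5 and 11.4 TPM. HOXA9 was highest in every library, at 3.88 ± 0.214 times HOXA10. HOXA11 followed at 4.33 ± 1.16 TPM and HOXA13 at 2.06 ± 0.538. HOXA5 and HOXA7 stood just above 1 TPM, at 1.63 ± 0.48 and 1.27 ± 0.297. HOXA2, HOXA3, HOXA4 and HOXA6 were below it, between 0.04 and 0.74 TPM. Of 28 genes of the HOXB, HOXC and HOXD clusters, 0 reached 1 TPM and 21 had at most 3 counts. The highest of them, HOXB7, had 0.46 TPM, before HOXB6, HOXB4 and HOXC10 at 0.387, 0.157 and 0.157.

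MEIS1, the usual partner of HOXA9 in leukaemia, was listed at 0.32, 0.07 and 0.06 TPM, with 6 counts and a GC content of 43.1%. Its relative MEIS2 had 13.6 ± 2.53 TPM, and PBX3, a further partner of HOX factors, had 7.1 ± 1.67. MEF2C, another target of the fusion, was listed at 97.5, 94.4 and 72.3 TPM. JMJD1C, a demethylase-like cofactor, had 87.9 ± 16 TPM and BMI1, a Polycomb protein of self-renewal, 141 ± 26.6. In all, 17 of 25 genes in the list of HOXA genes and fusion targets reached 1 TPM. The share of all protein-coding genes was 46%. The fusion partners themselves were modest, KMT2A at 7.92 ± 1.62 TPM and MLLT3 at 4.13 ± 0.72. The gene table does not separate fused from unfused transcripts.

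Of the Toll-like receptors, which sense microbial products, only TLR2 and TLR4 of the 10 listed reached a mean of 1 TPM. TLR2, a receptor for lipoproteins, was listed at 49.9, 46 and 34.1 TPM. TLR4, the receptor for LPS, was listed at 7.41, 7.4 and 6.12 TPM. TLR2 was higher in every library, at 6.17 ± 0.576 times TLR4. The proteins that hand LPS to TLR4 were low: CD14, as above, and LY96, also known as MD-2, at 0.88, 0.46 and 0.37 TPM. LY96 rested on 13 counts, and its GC content was 35%. LY86 and CD180, which form a related surface complex, had 33.8 ± 4.68 and 2.12 ± 0.551 TPM. TLR1 and TLR6, partners of TLR2, had 0.623 and 0.657 TPM, and the endosomal receptors TLR7 and TLR8 had 0.313 and 0.15. Other members were nearer the floor. TLR5, for flagellin, had 17.5 counts, TLR3, for double-stranded RNA, had 5, and TLR9, for DNA, had 0 (GC 61.7%).

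Below the receptors, 11 of 18 adaptors and kinases reached 1 TPM, beside 46% of all protein-coding genes. The route through MYD88, the main adaptor, was present at 11.4 ± 2.27 TPM for MYD88, 15.9 ± 4.79 for its kinase IRAK4 and 5.65 ± 0.907 for the ubiquitin ligase TRAF6. MAP3K7, also known as TAK1, which follows, had 36.5 ± 6.66 TPM and TAB2, its partner, 27.7 ± 5.64. IRAK3, an inhibitor of the pathway, had 28.4 ± 5.49 TPM. TICAM1, the adaptor TRIF of the other route, had 5 counts at 63.2% GC, although its kinase TBK1 had 42.1 ± 8.83 TPM. IRAK1 had 1.12 ± 0.286 TPM at 63.2% GC.

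Cytosolic sensors of nucleic acids were unequal. DDX41, a helicase that binds DNA, was highest with 132 ± 35.5 TPM, and STING1, which relays DNA sensing, had 42.5 ± 7.86. IFI16, another DNA sensor, had 11.8 ± 2.21 TPM and CGAS, the enzyme that activates STING1, 2.59 ± 0.34. The RNA sensors RIGI and IFIH1 had 2.71 ± 0.592 and 7.64 ± 1.68 TPM. MAVS, the adaptor both of these use, was listed at 0.183 TPM, from 117 counts.

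Purine receptors bear on the ATP used in the treated groups. P2RX7, the ATP-gated channel that drives NLRP3, was listed at 0.98, 1.19 and 0.75 TPM, which is just under 1 TPM on average. P2RX4, a related channel, was listed at 12.3, 11.6 and 9.36 TPM and was higher in every library. P2RY2, P2RY6 and P2RY8, which couple to G proteins, had 2.46 ± 0.462, 3.77 ± 1.01 and 2.48 ± 0.524 TPM. PANX1, a channel through which ATP leaves cells, had 5.95 ± 1.04 TPM, and ENTPD1, which breaks down ATP outside them, had 2.34 ± 0.295. Of the adenosine receptors, ADORA2B had 2.67 ± 0.524 TPM and ADORA2A had 3.4 counts. P2RY8, CSF2RA and IL3RA are each listed under 2 identifiers, and the values given are their sums.

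Receptors for growth factors were those of a myeloid progenitor in part. CSF2RA, the binding chain of the GM-CSF receptor, had 12.9 ± 3.00 TPM, and IL3RA, that of the interleukin-3 receptor, had 10.5 ± 2.78. CSF2RB, the signalling chain that both need, was listed at 0.15, 0.2 and 0.13 TPM, with 42 counts and a GC content of 59.6%. The binding chains were thus far above the shared chain in all 3 libraries. CSF1R, the macrophage growth factor receptor, had 2.44 ± 0.539 TPM and CSF3R, the G-CSF receptor, 1.63 ± 0.638. EPOR, the erythropoietin receptor, had 1.38 ± 0.405 TPM.

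Among receptors for interleukins and interferons, the interferon chains were all above 10 TPM. IFNGR1 and IFNGR2, for interferon gamma, had 45.7 ± 7.97 and 16.7 ± 2.96 TPM, and IFNAR1 and IFNAR2, for type I interferons, had 32 ± 8.02 and 26 ± 5.12. IL10RB, shared by several receptors, was highest with 78.1 ± 14.6 TPM, while IL10RA, specific to interleukin-10, had 1.28 ± 0.759. IL6R had 24.6 ± 4.6 TPM. For interleukin-1, IL1R1 had 1.62 ± 0.586 TPM and its second chain IL1RAP had 7.91 ± 1.64. For interleukin-18, IL18R1 had 0.29 TPM. Of the TNF receptor family, TNFRSF1A, the main receptor of TNF, had 10.5 ± 2.06 TPM, and TNFRSF10B and FAS, which can signal death, had 5.13 ± 1.05 and 2.5 ± 0.201. TNFRSF1B, the other TNF receptor, had 0.263 TPM (GC 63.4%).

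Chemokine receptors were either clearly expressed or under 1 TPM: of 24 genes, 5 reached 1 TPM, and these were all above 10 TPM. CCR2, which brings monocytes to CCL2, was listed at 93.1, 92 and 65.9 TPM. CXCR4, which holds progenitors in the marrow, was listed at 87.2, 80.2 and 59.9 TPM. CXCR2, better known on neutrophils, had 20.4 ± 4.53 TPM, and CCR1 had 18.4 ± 3.41. CX3CR1, of patrolling monocytes, had 13.3 ± 2.83 TPM. FPR1 and C5AR1, receptors of mature phagocytes for formyl peptides and complement C5a, had 8 and 37 counts.

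Luspatercept is a ligand trap made from the outer part of activin receptor IIB. The gene of that receptor, ACVR2B, was listed at 0.35, 0.52 and 0.33 TPM, and its relative ACVR2A had 1.57 ± 0.231. Of the partners that signal for them, ACVR1B had 1.77 ± 0.435 TPM and TGFBR1, used by TGF-beta, 15 ± 2.74. TGFBR2 had 6.32 ± 0.784 TPM. Of 36 ligands and antagonists of the family, 2 reached 1 TPM, BMP8B at 4.06 ± 1.41 and BMP4 at 1.86 ± 0.215. GDF11, a ligand that luspatercept binds, had 0.547 TPM and TGFB1 0.423 (GC 59.6%). INHBA, of activin A, had 7 counts, GDF15, a stress cytokine, 2 and MSTN, myostatin, 6. Downstream, the signal carriers were higher, SMAD2 at 60.01 ± 9.92 TPM, the shared SMAD4 at 17.8 ± 2.4 and SMAD5 at 17.1 ± 3.44. SMAD3 had 1.47 ± 0.365 TPM.

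Cyclosporin A acts by joining cyclophilin A to calcineurin. PPIA, the gene of cyclophilin A, was the gene of rank 43 in the whole table, at 4680.0, 4563 and 3163 TPM. Its relatives in the endoplasmic reticulum and mitochondria, PPIB and PPIF, had 614 ± 121 and 66.3 ± 13.3 TPM. Calcineurin was represented by its regulatory chain PPP3R1 at 29.2 ± 6.29 TPM and its catalytic chains PPP3CB and PPP3CA at 18.7 ± 4.12 and 11.5 ± 2.33. Of its targets, NFATC3 had 20.7 ± 4.16 TPM, NFATC2 1.24 ± 0.383 and NFATC1 0.397. The drug's partner thus stood far above every calcineurin chain named, in each of the libraries.

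Adhesion genes reached 1 TPM in 15 of 29 cases, again near the 46% of all protein-coding genes. PTPRC, the leukocyte phosphatase CD45, had 151 ± 29.3 TPM. ITGB1 and ITGA4, which pair to bind endothelium, had 115 ± 18.9 and 69.9 ± 13.7 TPM, and PECAM1, used in crossing it, had 69.6 ± 9.1. The leukocyte integrins were lower, ITGB2, their common chain, at 12.1 ± 3.72 TPM (GC 61.1%) and ITGAL at 7.39 ± 1.62. SELPLG, the selectin ligand, had 6.75 ± 1.29 TPM.

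The inflammasome list had 14 of 27 members at 1 TPM or more, a share near the 46% of all protein-coding genes. NLRP3, the sensor, was listed at 26.4, 27.2 and 17.8 TPM. PYCARD, the adaptor ASC, was listed at 32, 35.7 and 15.9 TPM. CASP4, the caspase that binds LPS in the cytosol, was listed at 80.00, 76.2 and 60.4 TPM. All 3 were above 10 TPM in every library, as did CASP1, given above. CARD8 and CARD16, regulators of CASP1, had 67.2 ± 12.9 and 52.9 ± 10.7 TPM, and NEK7, which joins NLRP3, had 48.5 ± 9.78. Other sensors were low: NLRC4 had 3.74 ± 0.769 TPM, NLRP1 7 counts and AIM2 4. CASP5, the neighbour of CASP4, had 4 counts. GSDMD, the pore protein of pyroptosis, was listed at 0.76, 0.37 and 0.22 TPM, with 25 counts and a GC content of 63.6%. GSDME, a related pore protein, was listed at 1.08, 1.04 and 0.89 TPM.

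The cytokines that the inflammasome releases differed. IL18, made as a stored precursor, was listed at 33.6, 29.3 and 21.7 TPM. IL1B, which is induced by LPS, was listed at 1.66, 2.33 and 1.32 TPM, and IL1A had 6.2 counts. IL1RN, the antagonist of the interleukin-1 receptor, was listed at 9.55, 13 and 7.01 TPM. The antagonist was above IL1B in every untreated library, and IL18 was above both. IL18BP, a soluble inhibitor of IL18, had 3.08 ± 0.632 TPM. For context, IL1B ran from 1508 to 2058 TPM in the LPS libraries, from 1576 to 1723 in CE and from 1044 to 1089 in CEL, with no test made.

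Most other cytokines were at the limit of detection. Of 36 other interleukins and growth factors, 4 reached 1 TPM. KITLG, the ligand of KIT, was the highest at 5.47, 5.02 and 3.77 TPM, so the receptor and its ligand were both listed in all 3 libraries. IL16 had 4.58 ± 1.31 TPM, IL23A 2.43 ± 0.301 and IL12A 1.42 ± 0.474. The chain that IL23A and IL12A need to form active cytokines, IL12B, had 6 counts. IL6 had 1 count, IL10 5 counts and CSF1 3. None of 21 interferon genes reached 1 TPM, and 12 of them, IFNG included, had 0 counts. The highest, IFNA13, had 0.16 TPM, and IFNB1 had 5 counts.

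Ligands of the TNF family were led by CD70, a co-stimulator carried by many leukaemias, at 38.3, 39.3 and 25.2 TPM. TNFSF10, also known as TRAIL, had 12.4 ± 2.69 TPM and TNFSF13B, a B cell survival factor, 12.1 ± 2.37. TNF itself was listed at 2.21, 1.56 and 1.27 TPM. A few chemokines were made without stimulus. CCL5, which attracts T cells and monocytes, was listed at 46.3, 43.5 and 29.2 TPM and CCL23 at 10.4, 9.28 and 8.66. CXCL8, the neutrophil attractant, was listed at 8.53, 5.48 and 4.59 TPM. CCL2, the ligand of CCR2, had 3.8 ± 0.765 TPM and CCL28 5.96 ± 0.96. CCL3, CCL4 and CXCL1, all typical of activated monocytes, had 0.38, 0.543 and 0.48 TPM. MIF, a cytokine kept in the cytoplasm of many cells, was the highest at 153, 161 and 115 TPM. In all, 4 of 24 CC chemokines and 3 of 21 others reached 1 TPM.

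Interferon-stimulated genes had a median of 2.68 TPM, against 0.523 TPM over all protein-coding genes. Of 36 such genes, 25 were at 1 TPM or more, beside 46% of all protein-coding genes. SAMHD1, which depletes nucleotides against viruses, had 142 ± 24.9 TPM, and BST2, which tethers leaving virus, had 111 ± 24.1. IFITM2 and IFITM3, which block entry, had 94.9 ± 22.9 and 27.1 ± 6.47 TPM. ISG15, MX1 and IFIT1, often read as a sign of interferon, stood lower at 3.44 ± 0.445, 1.1 ± 0.146 and 0.673 TPM. Of NF-kB genes, NFKBIA, the inhibitor, had 23.4 ± 4.96 TPM. NFKB1 and RELA, the classical pair of factors, had 10.3 ± 1.26 and 2.89 ± 0.539 TPM, and TNFAIP3, a brake on the pathway, had 2.84 ± 0.725.

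Antigen presentation genes were uneven. B2M, the common chain of MHC class I, had 1626 ± 324 TPM. For class II, CD74, the invariant chain, was listed at 77, 79.9 and 51.1 TPM and HLA-DRA at 6.1, 6.39 and 4.32. CIITA, the master regulator of class II, had 10.9 counts (GC 57.8%). CTSS, which trims the invariant chain, had 69.4 ± 14.7 TPM. Of the phagocyte oxidase, which makes superoxide, CYBA had 108 ± 21.6 TPM and its catalytic partner CYBB 7.43 ± 1.47. The cytosolic parts NCF4 and NCF1 had 50.5 ± 9.68 and 1.68 ± 0.68 TPM, and the GTPases RAC1 and RAC2 had 258 ± 62 and 120.2 ± 24.9. NCF1 has near-identical pseudogenes, which makes its value uncertain. NOS2, inducible nitric oxide synthase, had 1 count.

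**Figure D4:**
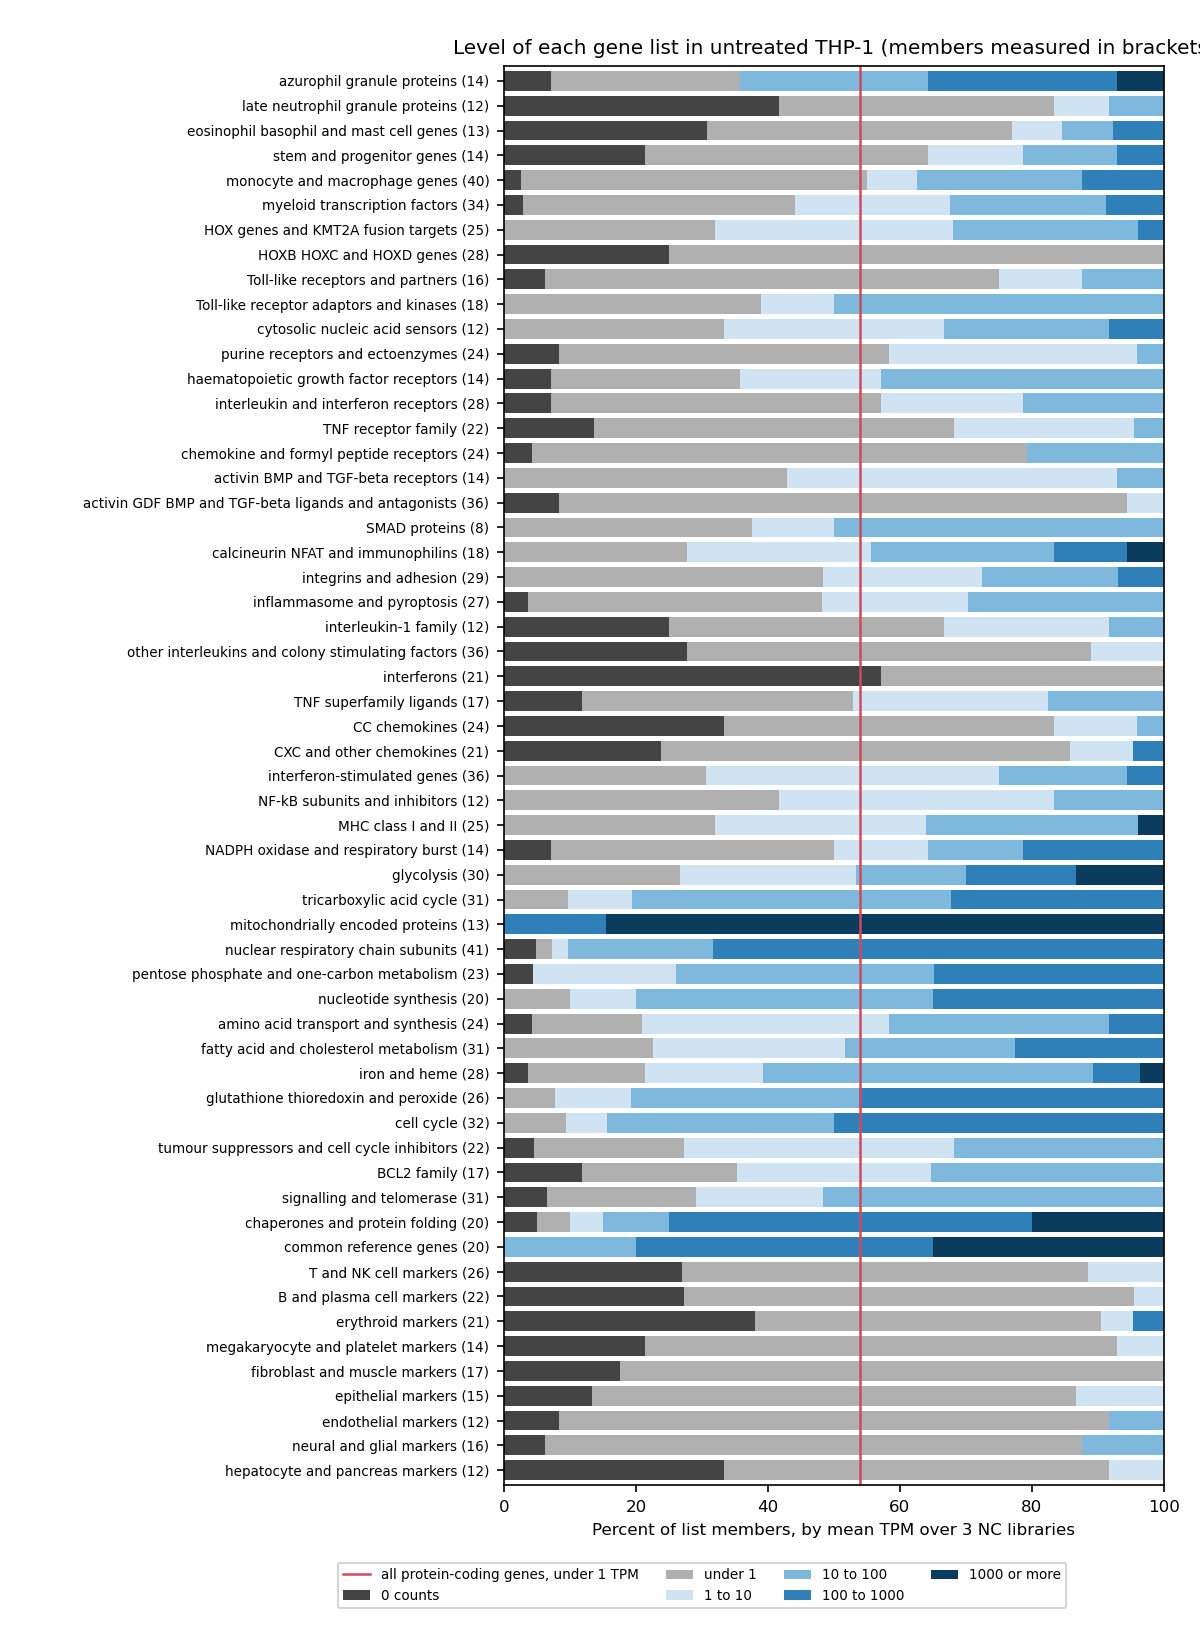
Percent of the members of each gene list (x axis) whose mean TPM over the 3 untreated libraries falls in each of 6 bands, from 0 counts (black) to 1000 TPM or more (darkest blue). The red line marks the share of all protein-coding genes below 1 TPM, and the lists of metabolism and growth have a smaller share below 1 TPM. The lists of interleukins, interferons, chemokines and markers of other cells have a larger one. Of the other immune lists in the cytokine section, those of the inflammasome, TNF ligands and NADPH oxidase lie near the line. The rest of that section has a smaller share below 1 TPM.

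Metabolic lists differed among themselves. In glycolysis 22 of 30 members reached 1 TPM, with a median of 7.25 TPM. GAPDH had 1983 ± 412 TPM and ENO1, enolase, 1314 ± 263. LDHB and LDHA, the chains of lactate dehydrogenase, had means of 1166 and 1139 TPM, and their ratio of 1.09, 0.974 and 1.00 crossed 1 between libraries. PKM, pyruvate kinase, had 299 ± 56.6 TPM. The entry step was lower. HK1 and HK2, hexokinases, had 8.13 ± 1.62 and 5.24 ± 1.2 TPM, and the glucose transporter SLC2A1 had 33.9 ± 8.19, against 1.7 ± 0.531 for SLC2A3. Of the phosphofructokinases, PFKP was listed at 31.2, 37.7 and 24.6 TPM and PFKL at 0.51, 0.35 and 0.23, with GC contents of 57.9% and 67.8%. PFKM, the muscle form, had 2.46 ± 0.966 TPM.

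The tricarboxylic acid cycle had 28 of 31 listed members at 1 TPM or more and a median of 63.9 TPM. MDH1, the cytosolic malate dehydrogenase, had 403 ± 72.2 TPM, FH, fumarase, 176 ± 31.2 and CS, citrate synthase, 161 ± 35.3. IDH1 and IDH2, isocitrate dehydrogenases that are mutated in some leukaemias, had 98.3 ± 17 and 33.1 ± 5.94 TPM. ACOD1, which makes itaconate in activated macrophages, had 1 count, and PCK1, of gluconeogenesis, had 3 counts.

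Of 41 nuclear genes of the respiratory chain, 38 reached 1 TPM, with a median of 220.5 TPM over the list. COX4I2, COX7A1 and COX6A2, which did not, encode forms known from other tissues. COX6C was highest at 912 ± 174 TPM, then COX7C at 861 ± 177, both of cytochrome oxidase, and UQCRB of complex III at 835 ± 162. CYCS, cytochrome c, had 511 ± 99.1 TPM. Among members at 1 TPM or more, the median was 319 TPM for 17 at 50% GC or less. It was 221 TPM for 16 over 50 to 60% GC and 30.4 TPM for 5 over 60%. The rank correlation of GC content with mean TPM was -0.557 over the 41 genes. It was -0.264 over all protein-coding genes, -0.27 in glycolysis, -0.286 in the tricarboxylic acid cycle and 0.0586 among common reference genes. In ATP synthase, ATP5F1A was listed at 609, 586 and 428 TPM (GC 48.2%) and ATP5F1D at 14.1, 14.5 and 9.36 TPM (GC 68.7%). This pair was chosen after its values were seen, as an example of the range.

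Genes of one-carbon and nucleotide metabolism were expressed nearly throughout, 22 of 23 and 18 of 20 reaching 1 TPM. TYMS, thymidylate synthase, had 303 ± 60.3 TPM, MTHFD2, the mitochondrial folate enzyme, 243 ± 48.6 and PSAT1, of serine synthesis, 189.9 ± 37.5. PHGDH and SHMT2, which stand before and after it, had 73.8 ± 15.6 and 72.6 ± 14.4 TPM. TALDO1 and TKT, of the pentose phosphate pathway, had 289.9 ± 56.2 and 91.7 ± 22.9 TPM. For purines, IMPDH2 had 310.4 ± 60.2 TPM and PAICS 129.8 ± 26.2, and HPRT1, of salvage, had 102 ± 18. For pyrimidines, CTPS1 had 191 ± 38.1 TPM and CAD, the first enzyme, 1.42 ± 0.551. RRM1 and RRM2, which pair as ribonucleotide reductase, had 185 ± 26.8 and 85.4 ± 18.3 TPM.

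Amino acid genes reached 1 TPM in 19 of 24 cases. ASS1, which allows cells to make their own arginine, was listed at 132, 128 and 90.3 TPM. SLC38A2, a transporter of neutral amino acids, had 123 ± 29.2 TPM, and BCAT1, of branched-chain amino acids, 43.5 ± 8.75. Of the transporters SLC1A5 and SLC7A5, the first had 3.92 ± 1.22 TPM and the other 0.293 (GC 60.3%).

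For lipids, 24 of 31 genes reached 1 TPM. FABP5, a fatty acid carrier, was highest with 396 ± 75.2 TPM. The cholesterol pathway was represented by FDPS at 336 ± 62.7 TPM and FDFT1 at a mean of 266. SCD, the desaturase, had 160.0 ± 33.8 TPM, whereas FASN, fatty acid synthase, which makes its substrate, was listed at 0.3, 0.23 and 0.04 TPM with a GC content of 65.3%. FABP4, of macrophages and fat cells, had 1 count, and PPARG, its regulator, had 2.98 ± 0.406 TPM.

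Iron genes were dominated by 1 ferritin chain. FTL, the light chain, was listed at 2858, 2781 and 1916 TPM. FTH1, the heavy chain that oxidises iron in the same shell, was listed at 147, 144 and 107 TPM. FTL was higher in every library, with a ratio of 19.5, 19.4 and 18, and their GC contents were 56.3% and 54.2%. In the other groups FTH1 ran from 2664 to 4054 TPM in LPS, from 4995 to 5972 in CE and from 8291 to 8832 in CEL. FTL ran from 3869 to 5767, from 6289 to 6733 and from 7159 to 7316 TPM there. Both genes have processed pseudogenes, so reads can be shared with copies. TFRC, the transferrin receptor, had 99.2 ± 18.1 TPM, NCOA4, which delivers ferritin for breakdown, 151 ± 29.6 and SLC40A1, the iron exporter ferroportin, 6.6 ± 1.2. HMOX1, heme oxygenase 1, had 0.44 TPM (GC 60.8%), and ALAS1, the first enzyme of heme synthesis, had 34.6 ± 7.33. ALAS2, the erythroid form, had 0 counts.

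Genes against peroxides were high, with 24 of 26 of the glutathione and redox list at 1 TPM or more. PRDX1, a peroxiredoxin, had 638 ± 126 TPM, TXN, thioredoxin, 522 ± 95.3 and CAT, catalase, 397 ± 76.1. SOD1, the cytosolic superoxide dismutase, had 349 ± 56.1 TPM and SOD2, its mitochondrial and inducible relative, 27.9 ± 4.94. GPX4, which protects membrane lipids, had 178 ± 37 TPM.

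Proliferation genes were high, 29 of 32 reaching 1 TPM at a median of 101 TPM. TOP2A, a topoisomerase of dividing cells, was listed at 477, 474 and 350.2 TPM. PCNA, the replication clamp, was listed at 394, 375 and 274 TPM. MKI67, the antigen Ki-67, had 78.3 ± 15.4 TPM, and CDK4 and CDK6, the kinases of the first growth phase, had 138 ± 30.2 and 39.3 ± 7.03. Of the D-type cyclins that bind them, CCND3 had 3.95 ± 0.933 TPM, CCND1 0.923 and CCND2 0.333. The kinases were thus listed far above their cyclins. CCNA1, a cyclin of germ cells and myeloid leukaemias, had 9.21 ± 2.14 TPM.

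Tumour suppressors varied. CDKN2C, an inhibitor of CDK4 and CDK6, had 56.7 ± 13.4 TPM, RB1 31 ± 6.67 and STAG2, a cohesin subunit, 64 ± 13. MDM2, a ubiquitin ligase, had 39.5 ± 4.82 TPM. CDKN1A, a general inhibitor of the cell cycle kinases, had 0.853 TPM. KDM6A, a histone demethylase gene on the X chromosome, had 8 counts at a GC content of 43.4% and was chosen after its value was seen.

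Neighbours on the short arm of chromosome 9 were at the floor: CDKN2A, which encodes the inhibitors p16 and p14ARF, had 0 counts, CDKN2B 1 and MTAP, a methionine salvage enzyme of most tissues, 3. After these values were seen, all protein-coding genes from IFNB1 to CDKN2B were looked at. The 20 genes over 1051 kb held 35 counts in all 3 libraries, no gene more than 5, and the highest mean was 0.16 TPM. Most are type I interferon genes, which are normally silent without a stimulus. MTAP and KLHL9, an adaptor of a ubiquitin ligase with 4 counts, are broadly expressed genes, with GC contents of 43.4% and 39.3%. The genes on the side towards the chromosome end were expressed, HACD4 at 9.76, 9.66 and 6.48 TPM and FOCAD at 23.9, 22.8 and 16.9 TPM, while DMRTA1 on the other side had 0.26, 0.44 and 0.18 TPM. In the other 9 libraries MTAP did not exceed 0.01 TPM. Loss of CDKN2A from the genome is a recorded feature of THP-1, and copy number was not measured here.

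A run of high genes on the short arm of chromosome 1 was also noticed after the values were seen. CAP1, which recycles actin (chromosome 1, 40040240 to 40072648), was listed at 4498, 4376 and 3205 TPM and was the gene of rank 44 in the whole table. PPT1, a lysosomal enzyme that removes fatty acids from proteins (chromosome 1, 40071461 to 40097252), lies next to it and was listed at 2669.7, 2584 and 1864 TPM. NFYC, a subunit of a CCAAT-binding factor, had 799.8 ± 177 TPM, and ZMPSTE24, which processes lamin A, had 622 ± 121. EXO5, a DNA exonuclease, had 232 ± 45 TPM. These neighbours have unrelated roles. From PABPC4 to CTPS1, 11 of 26 protein-coding genes reached 100 TPM (42.3%), against 5.51% of all protein-coding genes. The stretch was bounded after the values were seen, and by genes above 100 TPM at both ends, so nothing is read from this share. Others in the same stretch were below 1 TPM, among them MYCL, a relative of MYC, at 0.73, 0.97 and 0.56 TPM (GC 59.9%). Medians were also taken over each run of 15 neighbouring genes of 1 TPM or more along the genome. The 15 highest of 8607 runs were centred in this stretch, up to 136 TPM, while the median run stood at 15.9 TPM. Adjacent runs share most of their genes, and the stretch was picked from the same values. The ranking is therefore no separate support for it. With runs of 9 genes, the highest run was centred on S100A4 instead, at 333 TPM, and lies elsewhere on chromosome 1. In the other 9 libraries CAP1 ran from 4826 to 12369 TPM and PPT1 from 1918 to 2751. The part of copy number in these levels was not tested.

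**Figure D5:**
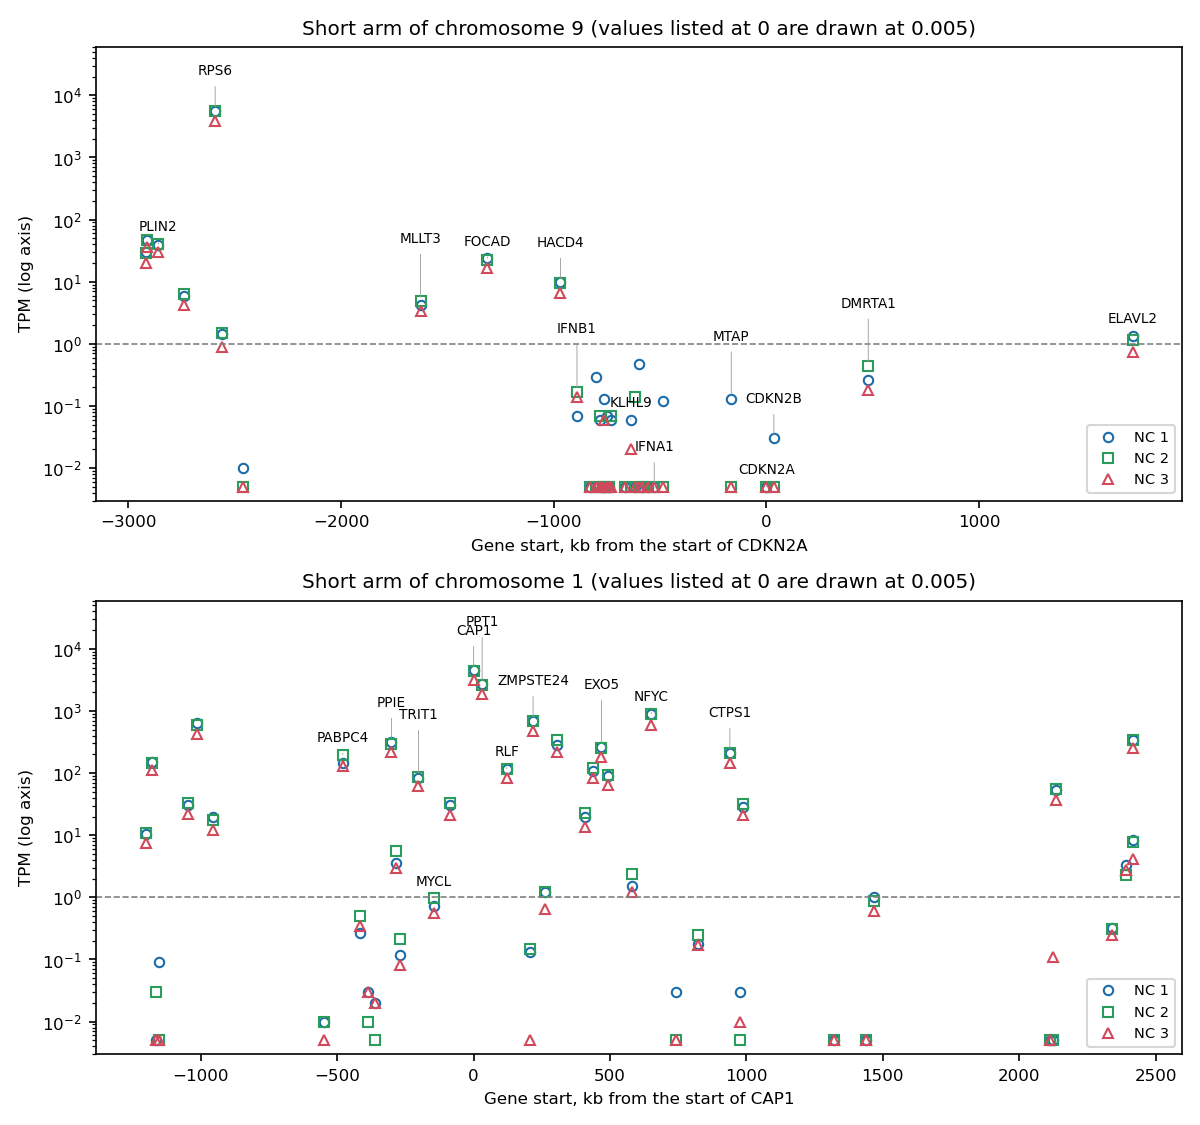
TPM in each untreated library (y axis, log scale) of protein-coding genes by the distance of their starts (x axis, kb) from that of CDKN2A on chromosome 9 (top) and of CAP1 on chromosome 1 (bottom), with 1 symbol per library. From IFNB1 to CDKN2B no mean exceeds 0.16 TPM, and from PABPC4 to CTPS1 11 of 26 genes have means of 100 TPM or more. Values listed at 0 are drawn at the foot of the axis.

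Survival genes were led by MCL1, a protector of myeloid cells, at 80.5 ± 13.8 TPM. BCL2, its relative, had 14.4 ± 2.75 TPM and BCL2L1 2.08 ± 0.254. Of the executioners, BAX had 49.7 ± 10.7 TPM and BAK1 2.95 ± 0.508, and BID, which links death receptors to them, had 47.3 ± 9.11. BBC3, also known as PUMA, had 0 counts at 64.4% GC. Of signalling genes, NRAS, the oncogene activated in this line, was the highest at 107, 105 and 76 TPM. The kinases BTK, SYK and LYN, which act below antibody and adhesion receptors, had 74.3 ± 14.9, 41.5 ± 8.46 and 31.3 ± 5.19 TPM. FGR, a kinase of mature myeloid cells, had 0.417 TPM.

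Of the chaperones, HSPA8, the constitutive HSP70, had 1949 ± 353 TPM and HSP90AB1 1787 ± 367. HSPA1A, the heat-inducible HSP70, was listed at 0.21, 0.14 and 0.33 TPM. Its twin HSPA1B had 2.59 ± 0.431 TPM, and reads can be shared between the twins. Common reference genes all had means above 20 TPM, from TBP at 23.1, 24.7 and 17.1 TPM in the 3 libraries to EEF1A1, given above.

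Markers of other cell types were mostly at the floor. Of T and NK cell markers, 23 of 26 were below 1 TPM and 20 had at most 3 counts. CD3E, CD8A, CD7 and PRF1 had 1, 0, 1 and 2 counts. The exceptions were NKG7, a granule membrane protein, at 7.31, 7.49 and 4.1 TPM, NCAM1, also known as CD56, which some myeloid leukaemias carry, at 5.84, 6.3 and 4.12, and KLRF1 at 1.42 ± 0.0702. Of B and plasma cell markers 21 of 22 were below 1 TPM, CD79B alone reaching it at 1.00 ± 0.637 TPM, with EBF1 at 0.383 and PAX5 and MS4A1 at 3 and 4 counts. Of erythroid markers 19 of 21 were below 1 TPM, including HBB (7 counts), HBA1 (0), KLF1 (2) and GATA1 (1). CA2, carbonic anhydrase 2, was 1 exception at 893, 884 and 631 TPM, and EPOR, given above, was the other at 1.38 ± 0.405 TPM. CA1, the erythroid neighbour of CA2, had 4 counts. Megakaryocyte markers were below 1 TPM in 13 of 14 cases, NRGN, neurogranin, having 9.67 ± 2.4 TPM and PF4, GP9 and ITGA2B having 0, 0 and 4 counts.

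None of 17 fibroblast and muscle markers reached 1 TPM, and COL1A1, DCN, PDGFRB and ACTA2 had 7, 3, 8 and 40.8 counts. Of 15 epithelial markers, OCLN and MUC1 reached it at 1.65 ± 0.0265 and 1.23 ± 0.68 TPM, while EPCAM and KRT18 had 0 counts, and CDH1 and KRT8 had 2 each. Of 12 endothelial markers, PECAM1 alone reached it, a gene also carried by monocytes, and CDH5, KDR and TIE1 had 3, 16 and 3 counts. Of 16 neural markers, MBP, whose longer transcripts are made in blood cells, was listed at 30.2, 28.2 and 21.3 TPM and NCALD, neurocalcin, at 12.2, 12.4 and 8.47, and SNAP25, GFAP, SOX2 and NES had 0.713, 0.0733, 0.0433 and 0.0333 TPM. Of 12 liver and pancreas markers, SERPINA1, also made by monocytes, reached 1.18 ± 0.137 TPM, ALB had 13 counts and INS had 1.

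Between the NC libraries, 55 of the 5879 genes of 10 TPM or more were listed at 0 in NC 1 and NC 2 and above 0 in NC 3. These 55 reached a mean of 10 TPM through NC 3 alone. They share the largest coefficient of variation with a gene without a symbol that was listed above 0 in NC 1 alone. Among the first by identifier were SNORA21, RNU5A-1, RNA5SP145, RNU5B-1, RNA5S9, RNA5SP19, RNU5E-6P, SNORA5A and RNU6-398P, whose names are those of components of splicing, of RNA modification or of ribosomes, or of their pseudogenes. Of 5391 nuclear protein-coding genes of 10 TPM or more, 32 differed by 2 times or more between libraries as deposited. After scaling to a common sum, 8 did, all highest in NC 3. They were the histone genes H4C14, H2BC18, H2AC18, H4C15 and H1-2, the histone variant MACROH2A2, the interferon regulator IRF1 and MATR3. IRF1 and the histone genes from H4C14 to H1-2 were under 10 TPM in NC 1 and NC 2. They passed the limit on the mean through NC 3 alone, so their direction was fixed by it. H4C14 was listed at 0.79, 0.81 and 42.3 TPM and H1-2 at 5.93, 4.48 and 28.6, and replication histone transcripts lack the poly(A) tail by which messenger RNA was captured. IRF1, which has such a tail, was listed at 8.78, 8.99 and 22.2 TPM. Whether the structural RNAs of NC 3 and these genes share a source was not tested.

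The other groups gave these ranges for the marker genes, with no test made. CTSG ran from 35.3 to 51 TPM in LPS, from 49.4 to 57.6 in CE and from 51.2 to 57.9 in CEL. KIT ran from 4.27 to 6.63, from 11.5 to 12.8 and from 9.05 to 9.78 TPM. LYZ ran from 130.4 to 185, from 28.3 to 32.4 and from 22.1 to 28.4 TPM. CASP1 ran from 156 to 219.5, from 167 to 178 and from 147 to 149.8 TPM, and MPO stayed below 1 TPM in all 12 libraries. LPS 1 was the other library rich in nuclear ribosomal RNA, at 14.4% of TPM.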

How the data were processed

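Polyadenylated RNA of 12 THP-1 libraries was captured with oligo-dT beads, fragmented and amplified, per the labels' protocols. The authors deposited merged gene tables of estimated counts, of TPM and of FPKM, with all libraries of the series as columns, and 0 columns were left unused. The build was hg38 per the submitters' processing notes. The aligner, counter, annotation and use of strand were not given in the sources used here. Of nonzero NC counts, 29.5% were not whole within 0.005. Without strand, reads of overlapping or antisense genes cannot be told apart.

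From the deposited TPM, means, SDs and ranks over the 3 NC columns were computed, with no pseudocount and no test. The deposited FPKM values and estimated counts served for alternatives, for counts per gene and for depth. Rows of equal symbol were summed for listed genes. GC content came from coding transcripts of GENCODE release 29, and gene positions from RefSeq GRCh38.p14. The 57 lists hold 1220 genes, 1218 of them in the table. Python 3.11.15, pandas 2.3.3 and, for normalisation factors, edgeR 4.0.16 under R 4.3.3 were used, and the scripts were tested on simulated data.

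The members, lists and alternatives were chosen with earlier results of these data known. Genes named are the 5 markers, the core members of each list, the 4 highest of each list, members of lists of other cell types at 1 TPM or more, the 20 highest genes overall and the 10 with the largest coefficient of variation. Other genes were chosen after their values were seen: those of the stretches on chromosomes 1 and 9 beyond the core members, the histone genes with MACROH2A2, IRF1 and MATR3, the highest nuclear genes beyond the first 20, and ATP5F1A, ATP5F1D, BBC3, BPI, CA1, CEBPB, CLC, COX4I2, COX6A2, COX7A1, CTSC, CX3CR1, DEFA1, DEFA3, DEFA4, EPX, FCN1, the HOXA genes other than HOXA5, HOXA9, HOXA10 and HOXA13, HSPA1B, IRAK1, KDM6A, LCN2, MECOM, MEIS2, NEK7, NOS2, P2RY8, PFKM, PROM1, S100A4 and SERPINB1. The scaling to nuclear protein-coding genes and the list threshold of 0.5 TPM were also added after seeing the data. Some core members of the lists are not reported here.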

Additional observations from a re-analysis of the deposited data

How the results depend on the processing

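The number of genes at 1 TPM or more, 11090 as reported, lay between 9478 and 12912 under other thresholds, filters and a rescaling without mitochondrial genes and ribosomal RNA, and between 10880 and 11194 when a library was left out. With scaling to nuclear protein-coding genes, which counts those genes only, it was 9340. The number of genes holding 50% of TPM, 107 as reported, became 181 after removal of mitochondrial genes and ribosomal RNA, 171 after scaling to nuclear protein-coding genes and 435 in CPM of the estimated counts, which are not divided by length. It was 96 to 118 when a library was left out. Of listed genes, 615 reached 1 TPM, against 613 to 621 in other scalings and summaries and 606 to 620 when a library was left out. Genes that differed by 2 times or more between libraries numbered 186 at 10 TPM or more, 1281 with the threshold at 1 TPM, and 141 with TMM factors. Over nuclear protein-coding genes alone they numbered 32 as deposited and 8 after scaling to the sum of those genes. That scaling raised the core genes at 1 TPM or more by a median of 1.4 times, and 209 of 215 moved by more than their SD. Without NC 3 their median ratio to the reported mean was 1.11. Leaving out 1 of 3 libraries cannot move a mean by more than its SD, so the 0 of 219 that did so shows nothing. No paired analysis was possible because the results come from no test. Depth limits the lowest genes, many of which are given by their counts in place of TPM. Others near the floor are given in TPM and rest on few counts, such as SOX2 with 6 and IFNA13 with 5.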

Other observations

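Among nuclear genes outside the ribosome with the highest means, several were not described above. TPT1, a translationally controlled protein, was listed at 5393, 5271 and 3744 TPM in NC 1, NC 2 and NC 3 and stood between PTMA and PPIA. HNRNPA1, which binds nascent transcripts and steers splicing, was listed at 3481, 3383 and 2458 TPM, after CAP1. TMSB4X, which sequesters actin monomers, was listed at 2836, 2762 and 1906 TPM, between FTL and PPT1. NACA, which guides nascent proteins, had 2354 ± 429.6 TPM and NPM1, a nucleolar chaperone often mutated in acute myeloid leukaemia, 2249 ± 421. ACTB, cytoplasmic actin, had 2162 ± 515 TPM. Each gene given here with its values was above 1000 TPM in all 3 libraries.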
